A study of Mus musculus with 4 samples.

Results

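The Ly49 receptors are C-type lectin-like proteins on mouse natural killer (NK) cells that bind MHC class I and related molecules. They are encoded by the Klra genes, which lie side by side on chromosome 6 in the natural killer gene complex. Inhibitory members carry a motif in the cytoplasmic tail that recruits the phosphatases SHP-1 and SHP-2, whereas the activating members Ly49D and Ly49H signal through the adaptor DAP12. Each NK cell expresses its own subset of the genes, a choice made largely allele by allele and stably inherited, so that a culture is a mixture of cells with different Ly49 repertoires.

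The 10 genes Klra1 to Klra10 were examined in an ATAC-seq series, in which a transposase marks open chromatin. An accessible region of the authors' deposited list belonged to the cluster when no protein-coding gene lay closer to it than 1 of these 10, measured to the gene's span. By this rule 75 of 91266 regions were Ly49 regions, and all lay on chromosome 6. The study compared wild-type C57BL/6 NK cells cultured for 72 h in a high dose (HD) or a low dose (LD) of interleukin-15 (IL-15), a cytokine that NK cells need for survival, with 2 biological replicates per dose. The concentrations, the age and sex of the mice and the purity of the cultures are not given in the sources used here. The deposited tables analysed hold positions and widths, with no value per sample, so that sequencing depth, the spread between replicates and the size of any change are unknown. No result below carries a replicate error, and none was tested between doses.

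Regions were deposited for the series as a whole, so a region may be open at either dose or at both. In a bulk culture, a locus that is open in fewer cells and a locus that is less open in each cell cannot be told apart. The labelled cell type was compared with regions at marker genes. All 7 NK cell markers (Ncr1, Klrb1c, Eomes, Tbx21, Prf1, Gzmb and Il2rb) had a region over the gene, and the 6 of them with a RefSeq promoter window had a region there. Of 8 markers of T cells, B cells, myeloid cells and erythroid cells, 3 had a region over the gene, and 0 of the 4 with a promoter window had a region over it. Those 3 were Cd3e and Cd3d, which encode chains of the T cell receptor complex, and the myeloid marker Csf1r, with 1 region over each gene. The part of other cells in these regions was not tested.

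The promoter sequences are shown for the members on which the results turn: Klra4 and Klra8, which had a region over the window; Klra3, whose window is alike but had none; the second start of Klra7 and the start of Klra10, which resemble each other; and Klra1, whose window resembles none of the others. A promoter window covers 250 bases before to 50 after a RefSeq start. All 10 genes lie on the minus strand, and each sequence is that of the gene's own strand, 5′ to 3′, from RefSeq on GRCm38.p6. In Klra4 (chr6:130067222-130067521), Klra8 (chr6:130129849-130130148) and Klra3 (chr6:130337577-130337876), capitals mark runs of 9 or more bases found in at least 7 of the 10 members. Overlapping runs are joined, so a whole marked stretch can occur in fewer members. In the second start of Klra7 (chr6:130231638-130231937) and in Klra10 (chr6:130281879-130282178), capitals mark matches to the STAT motif TTCNNNGAA. In Klra1 (chr6:130386825-130387124) they mark matches to the RUNX motif TGTGGT, the ETS motif ACAGGAAG and the T-box motif TCACACC, the last on the opposite strand.
Klra4: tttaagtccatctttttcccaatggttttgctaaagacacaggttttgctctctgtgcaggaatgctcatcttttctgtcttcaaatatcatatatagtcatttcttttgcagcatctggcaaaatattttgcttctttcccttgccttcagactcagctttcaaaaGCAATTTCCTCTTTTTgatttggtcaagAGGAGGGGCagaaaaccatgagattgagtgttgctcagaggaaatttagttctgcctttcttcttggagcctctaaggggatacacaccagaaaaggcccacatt
Klra8: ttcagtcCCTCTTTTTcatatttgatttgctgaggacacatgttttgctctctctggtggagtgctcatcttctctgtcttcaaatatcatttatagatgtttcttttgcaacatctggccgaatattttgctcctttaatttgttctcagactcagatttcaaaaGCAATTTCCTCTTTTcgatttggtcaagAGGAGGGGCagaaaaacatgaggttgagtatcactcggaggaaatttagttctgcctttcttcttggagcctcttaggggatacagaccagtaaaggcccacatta
Klra3: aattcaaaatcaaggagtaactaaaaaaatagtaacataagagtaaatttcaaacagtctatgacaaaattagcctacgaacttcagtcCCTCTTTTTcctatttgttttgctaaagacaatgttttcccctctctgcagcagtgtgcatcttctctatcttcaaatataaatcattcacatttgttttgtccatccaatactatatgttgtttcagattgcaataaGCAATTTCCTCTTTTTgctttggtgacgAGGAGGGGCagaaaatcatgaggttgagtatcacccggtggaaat
Klra7, second start: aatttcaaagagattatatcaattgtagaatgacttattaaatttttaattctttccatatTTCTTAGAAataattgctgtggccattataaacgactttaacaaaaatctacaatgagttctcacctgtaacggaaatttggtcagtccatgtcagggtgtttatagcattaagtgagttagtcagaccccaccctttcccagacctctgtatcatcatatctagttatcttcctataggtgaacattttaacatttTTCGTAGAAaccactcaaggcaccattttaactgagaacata
Klra10: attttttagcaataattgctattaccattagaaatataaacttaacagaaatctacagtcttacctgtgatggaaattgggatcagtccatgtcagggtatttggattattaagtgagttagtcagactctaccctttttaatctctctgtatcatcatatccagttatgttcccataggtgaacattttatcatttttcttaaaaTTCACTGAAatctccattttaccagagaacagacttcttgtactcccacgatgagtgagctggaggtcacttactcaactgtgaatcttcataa
Klra1: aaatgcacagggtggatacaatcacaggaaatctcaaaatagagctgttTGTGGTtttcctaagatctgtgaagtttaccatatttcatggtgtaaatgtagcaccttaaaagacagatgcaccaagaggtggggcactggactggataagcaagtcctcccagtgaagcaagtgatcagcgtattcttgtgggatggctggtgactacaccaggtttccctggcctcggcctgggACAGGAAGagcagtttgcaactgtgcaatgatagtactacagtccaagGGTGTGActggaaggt

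Which Ly49 genes held accessible chromatin was examined first. All 10 members had at least 1 region assigned, but their counts ranged from 2 to 12. Klra3 and Klra9 had 12 regions each, Klra8 had 11 and Klra7 had 9. Klra4, Klra5 and Klra10 had 7 each, Klra6 had 5, Klra1 had 3 and Klra2 had 2. Neighbouring counts in this order differ by 2 regions or fewer, and without values per replicate no error can be given for their order. Fewer genes had a region over the gene itself: 7 of the 10 did, and Klra2, Klra6 and Klra10 did not. Only 19 of the 75 regions (25.3%) overlapped their gene, whereas 3199 of the 5468 regions of chromosome 6 (58.5%) overlapped a protein-coding gene. Of the remaining 56 regions, 31 lay upstream and 25 downstream of their gene.

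**Figure D1:**
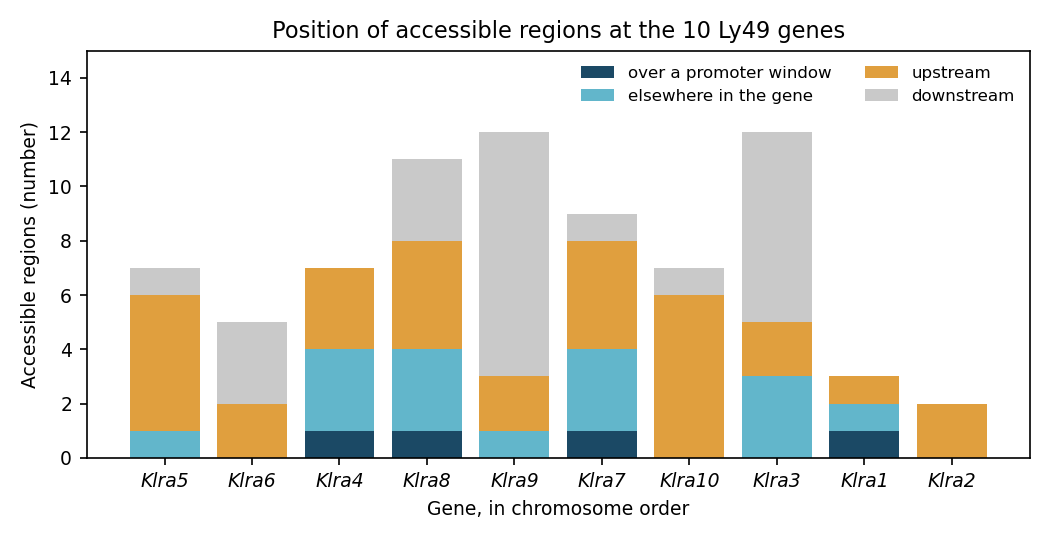
Number of accessible regions at each of the 10 Ly49 genes, in chromosome order (x axis), divided by position: over a promoter window, elsewhere in the gene, upstream or downstream. Regions over a promoter window occurred at Klra4, Klra8, Klra7 and Klra1, while all regions of Klra6, Klra10 and Klra2 lay outside the gene.

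Of the activating receptors, Klra4 encodes Ly49D, which recognises the MHC class I molecule H-2Dd, and lies at chromosome 6, 130043730 to 130067301. It had 4 regions over the gene, all in the part nearest the start. A region of 345 bp at 130066991 to 130067335 covered the start itself and 114 of the 300 bases of the promoter window (38.0%). Inside the gene it was followed by regions of 397, 598 and 369 bp, whose centres lay 1.03, 1.81 and 4.22 kb below the start. A further region of 287 bp lay 424 bp beyond the upstream end of the gene. Klra4 thus had 4 regions with a centre within 2 kb of the start, all of them unlisted, the word used here for regions in neither the up nor the down list.

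Klra8 encodes Ly49H, the activating receptor that binds the m157 protein of mouse cytomegalovirus, and lies at 130115226 to 130129898. Its start was covered by a region of 491 bp at 130129582 to 130130072, which took in 224 of the 300 bases of the promoter window (74.7%). RefSeq gives a second start of Klra8 close to the first, and 95.7% of its window was covered by the same region. Within the gene, regions of 449, 264 and 628 bp followed, with centres 1.11, 3.30 and 7.0 kb below the start. Both activating receptors therefore had a region over the promoter window, against 2 of the 8 other members.

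Those 2 were Klra7 and Klra1, which encode the inhibitory receptors Ly49G and Ly49A. At Klra7 (130218605 to 130233322) the upstream start had no region. A region of 375 bp at 130231487 to 130231861 covered 224 of the 300 bases of the second window, shown above, which lies inside the gene. Klra1 (130363918 to 130386874) had the only window that was covered in full, by a region of 523 bp at 130386737 to 130387259. Apart from it, Klra1 had 1 region of 261 bp inside the gene and 1 of 685 bp that lay 32256 bp upstream. The next region upstream was nearer to another gene and was not counted.

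Klra3 and Klra9 encode Ly49C and Ly49I, related inhibitory receptors that bind self MHC class I in C57BL/6 mice. They had the most regions, yet no region covered their promoter windows. The nearest region to the start of Klra3 (130323289 to 130337626) was one of 161 bp, 1753 bp away and inside the gene. The nearest to the start of Klra9 (130178626 to 130194374) was one of 381 bp, 2501 bp away and upstream. Of the 12 regions of Klra9, 9 lay downstream, between that gene and Klra8. Of the 12 regions of Klra3, 7 lay downstream, towards Klra10. The stretches between these genes hold Ly49 pseudogenes, and 9 of the 75 Ly49 regions overlapped one: 6 the pseudogene Klra13-ps, 2 Klra14-ps and 1 Klra11-ps.

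The remaining members had no region over a start either. Klra5 (129898988 to 129913237), which encodes Ly49E, a receptor of fetal NK cells and of some resident lymphocytes, had 1 region of 255 bp inside the gene, 1615 bp from the start. Klra6 (130013033 to 130026960), which encodes Ly49F, had no region closer to the gene than 4563 bp. At Klra10 (130269194 to 130283647), which encodes Ly49J, the nearest was 2687 bp from the gene. Klra2 (131198970 to 131247716), which encodes Ly49B, a receptor known mainly from myeloid cells, lies apart from the other 9. It had 2 regions, of 653 and 667 bp, which lay 14173 and 16036 bp upstream of the gene.

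A region several kilobases upstream of the start recurred at many members, a pattern noticed after the positions had been seen. An upstream promoter and enhancer element, called Pro1 or Hss1, has been described there for Ly49 genes. The centre of a region lay 4.55 kb upstream of the start at Klra5, 4.67 kb at Klra7, 4.67 kb at Klra9, 4.68 kb at Klra3 and 4.81 kb at Klra6. Apart from the one at Klra6, these were the widest region of their gene: 703 bp at Klra5 (129917427 to 129918129), 854 bp at Klra7 (130237567 to 130238420), 724 bp at Klra9 (130197425 to 130198148) and 737 bp at Klra3 (130341942 to 130342678). At Klra6 the region measured 492 bp (130031523 to 130032014). Klra10 had a region of 304 bp, in the down list, 4.56 kb from its RefSeq start, which lies 1719 bp inside the gene. Together, 6 regions of 6 genes fell between 4.5 and 4.9 kb upstream of the RefSeq start, limits drawn around positions and widths already seen. The region counted at Klra10 depends on the reference point, as given below.

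At 3 members the widest region within 10 kb upstream lay farther out. It measured 690 bp at Klra8, 6.74 kb upstream (130136297 to 130136986), 591 bp at Klra4, 8.06 kb upstream (130075036 to 130075626), and 478 bp at Klra10, 6.37 kb upstream (130288056 to 130288533). In all, 7 of the 10 members had a region between 3 and 7 kb upstream of the start, and Klra1, Klra2 and Klra4 did not. The reference point matters for 2 genes, since the RefSeq start lies 1262 bp inside the gene at Klra9 and 1719 bp inside at Klra10. Measured from the gene's upper end, the widest region of Klra9 was 3.41 kb away, and that of Klra10 was 4.65 kb away. The number of genes with a region between 3 and 7 kb stayed at 7, and 5 genes had a region between 4.5 and 4.9 kb. At Klra10 it was then the unlisted region of 478 bp. The down region of 304 bp, which lay 2687 bp from the gene, was no longer in that range.

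**Figure D2:**
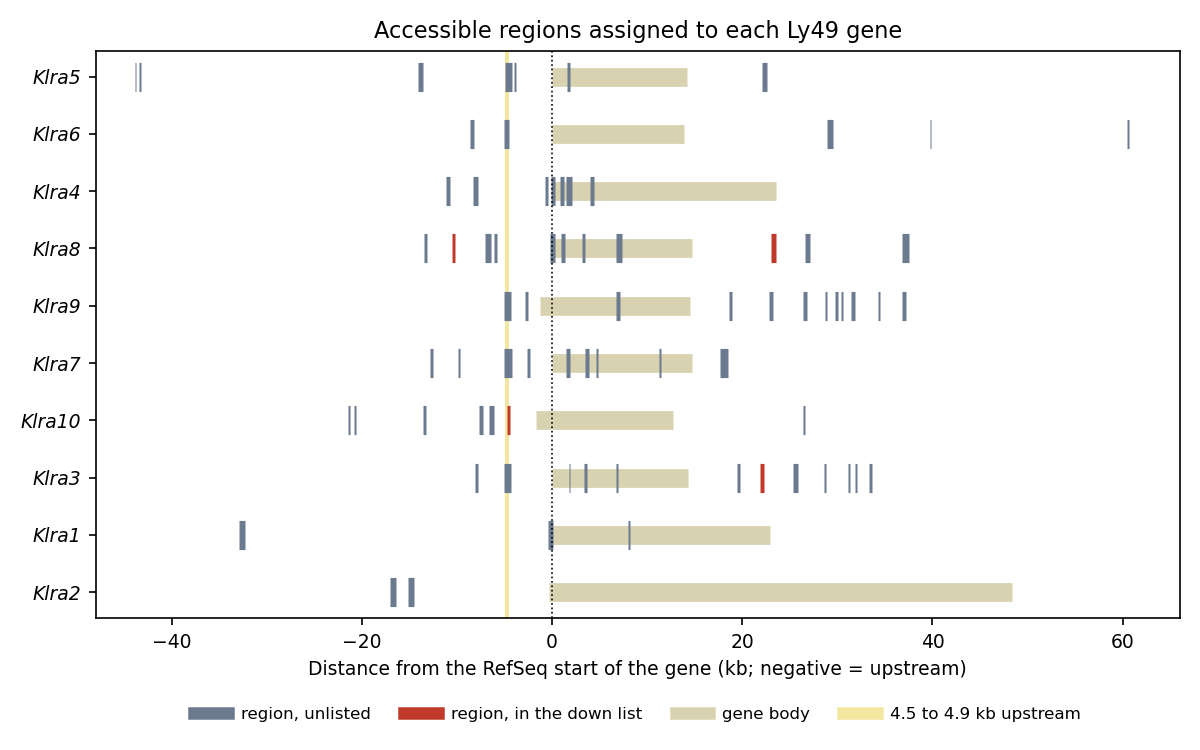
Position of the 75 Ly49 regions (bars) relative to the RefSeq start of the gene they were assigned to, in kb on the x axis, with genes as rows in chromosome order. Within the yellow band from 4.5 to 4.9 kb upstream lies the centre of a region at 6 genes, and the 4 regions of the down list (red) belong to Klra8, Klra10 and Klra3.

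**Figure D3:**
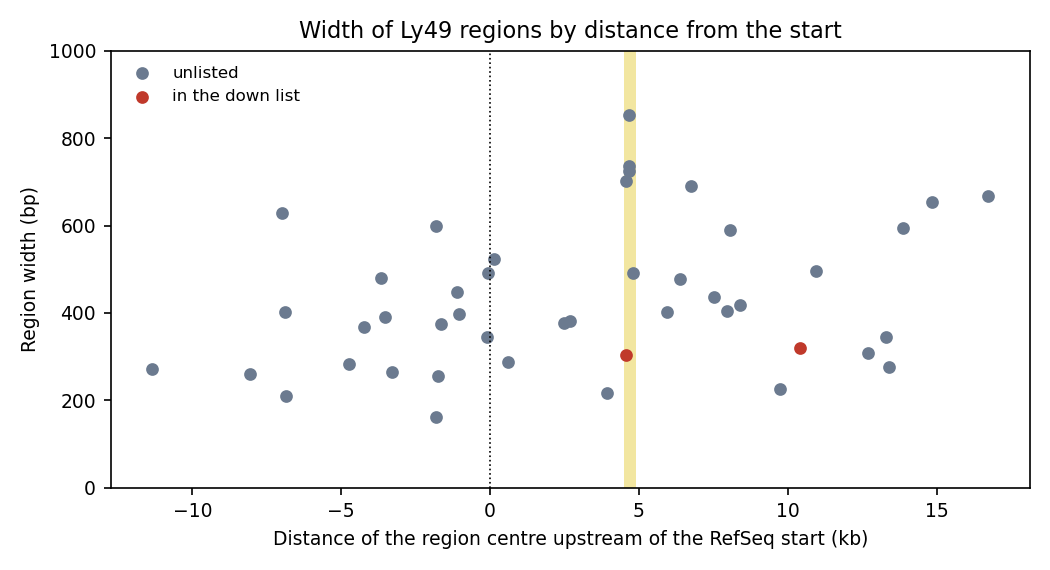
Width in bp (y axis) of Ly49 regions against the distance of their centre upstream of the RefSeq start in kb (x axis, negative values lie below the start). Each point is 1 region, regions beyond the plotted distances are left out, and 4 of the 6 points in the yellow band from 4.5 to 4.9 kb are between 703 and 854 bp wide.

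Positions inside and below the genes recurred at some members, and the distances that follow were drawn around positions already seen. A region with its centre 1.0 to 1.9 kb below the start occurred inside 5 genes (Klra3, Klra4, Klra5, Klra7 and Klra8), with 6 regions in all and widths from 161 to 598 bp. Downstream, a region lay 7.5 to 8.4 kb from the gene at Klra3, Klra5, Klra8 and Klra9, with widths from 372 to 473 bp. Those at Klra3 and Klra8 were in the down list and those at Klra5 and Klra9 were not.

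The authors' comparison of the doses was then read at these genes. Their deposited tables name an up list and a down list and do not say which dose was the reference, so neither list is assigned to a dose here. Over all regions, 4.21% were in the up list and 1.40% in the down list. Of the 75 Ly49 regions, 4 were in the down list, or 5.33% (95% Wilson interval 2.09 to 12.9%, counting error only). None was in the up list: 0 of 75, which allows a share of up to 4.0% by the limit of 3 counts and up to 4.87% by the Wilson interval. The 4.21% of all regions lies between these bounds, so a lower up share than over all regions was not shown. Neighbouring regions are not independent, and no test of these shares was made.

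The 4 down regions all lay outside the genes, and none covered a promoter window. At Klra8, a region of 320 bp at 130140134 to 130140453 lay 10236 bp upstream of the gene, and a region of 453 bp at 130106399 to 130106851 lay 8375 bp downstream. At Klra10, a region of 304 bp at 130286334 to 130286637 lay 2687 bp upstream. At Klra3, a region of 372 bp at 130315368 to 130315739 lay 7550 bp downstream, between that gene and the pseudogene Klra13-ps. The authors' down list thus held regions of 3 of the 10 members, and at Klra1, Klra2, Klra4, Klra5, Klra6, Klra7 and Klra9 neither list held any. Assignment to a gene by nearness does not show which gene a region serves. When pseudogenes and genes of every other biotype could also be nearest, 1 of 36 regions was down, the one at Klra10. By the main rule it was 4 of 75, and over all regions 1.40%. The down share of the Ly49 regions thus depends on the rule of assignment.

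Each down region had unlisted neighbours. The gaps to the regions on either side were 3147 and 2554 bp for the upstream region of Klra8, and 3036 and 2173 bp for the region at Klra3. The downstream region of Klra8 was 3069 bp from the preceding region and 15733 bp from the next. The region of Klra10 followed a gap of 30829 bp and preceded the 478 bp region by 1418 bp. The 4 down regions measured 304, 320, 372 and 453 bp, all below the median of 537 bp of the authors' whole down list and within the interquartile range of the Ly49 widths. The median width of the Ly49 regions was 381 bp (interquartile range 259.5 to 501.5 bp) against 400 bp for all regions (252 to 653 bp). The widest Ly49 region measured 854 bp. Of all regions 9.18% were wider than 1000 bp, and 0 of the 75 Ly49 regions were.

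**Figure D4:**
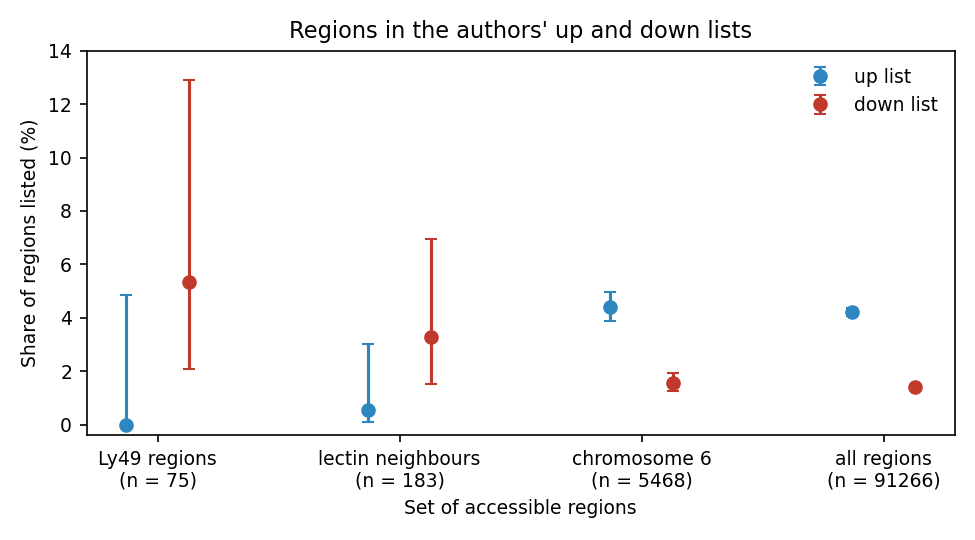
Share of regions in the authors' up list (blue) and down list (red), in percent (y axis), for the 75 Ly49 regions, the regions of 22 other lectin-like genes of the same complex, chromosome 6 and the whole series. Points are shares and bars 95% Wilson intervals, and the Ly49 regions had 0 up and 4 down.

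Other genes of the natural killer gene complex provide the nearest comparison. The 22 lectin-like genes fixed as a list, among them Klrb1c, Klrd1, Klrk1 and Klrc1, had 183 regions, all 22 with at least 1 over the gene. Of these regions 1 was up (0.546%, Wilson interval 0.0965 to 3.03%), against 4.21% of all regions, and 6 were down (3.28%, 1.51 to 6.97%), against 1.40%. Few up regions and a down share above that of all regions were thus found at these neighbours as well, and the interval of the down share overlaps that of the Ly49 regions. The down regions belonged to Klrb1a and Klrb1c with 2 each, and to Clec2d and Clec2g with 1 each. The 7 NK cell markers named above, of which Klrb1c is in both lists, had 0 of 97 regions up and 7 down (7.22%): 4 at Ncr1, 2 at Klrb1c and 1 at Il2rb. Their shares lay on the same side of the shares of all regions as those of the Ly49 genes. A region covered a promoter window at 12 of the 17 lectin-like genes with such a window, and at 4 of the 10 Ly49 genes. The stretch from Klra5 to Klra1, 488 kb long, held 14.6 regions per 100 kb, and the stretch from Klre1 to Klrh1, which lies on the far side of Klra17 and is 225 kb long, held 24.9. Chromosome 6 as a whole held 3.73 per 100 kb. With Klra2 and the 812 kb that separate it from Klra1 included, the density of the Ly49 genes was 6.08 per 100 kb. These differences were not tested.

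The partners that carry the Ly49 signal were read in the same way. Of 7 fixed genes, all had a region over the gene, and of their 76 regions 1 was up (1.32%, against 4.21% of all regions) and 2 were down (2.63%, against 1.40%). These counts are too few to set apart from the shares of all regions. Tyrobp, which encodes DAP12, had 1 of 8 regions down, and Syk, a kinase downstream of DAP12, had 1 of 25 down. Ptpn11, which encodes SHP-2, had 1 of 8 up. Neither list held a region of Ptpn6, which encodes SHP-1, nor of Hcst, Inpp5d or Zap70.

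The promoter windows were compared with each other, because copies of high identity can share sequencing reads. Among the 45 pairs of members, the best local alignment of the upstream windows held 150 or more identical bases in 24. Klra3 and Klra9 were the most alike, with 271 identical bases in 284 aligned columns (95.4%). Klra4 and Klra8 had 259 identical bases in 299 columns (86.6%), and Klra5 and Klra6 had 246 in 271 (90.8%). Klra4 and Klra8 both had a region over the window. Klra3, Klra9, Klra5 and Klra6 did not, although 183 bases of the Klra3 window were identical to that of Klra8 in 240 columns. The windows of Klra10 and Klra1 shared at most 13 bases with any upstream window. That of Klra10 instead shared 191 bases in 242 columns (78.9%) with the second start of Klra7. How reads that match several copies were treated is not given in the sources used here, and its part in the presence or absence of a region was not tested.

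**Figure D5:**
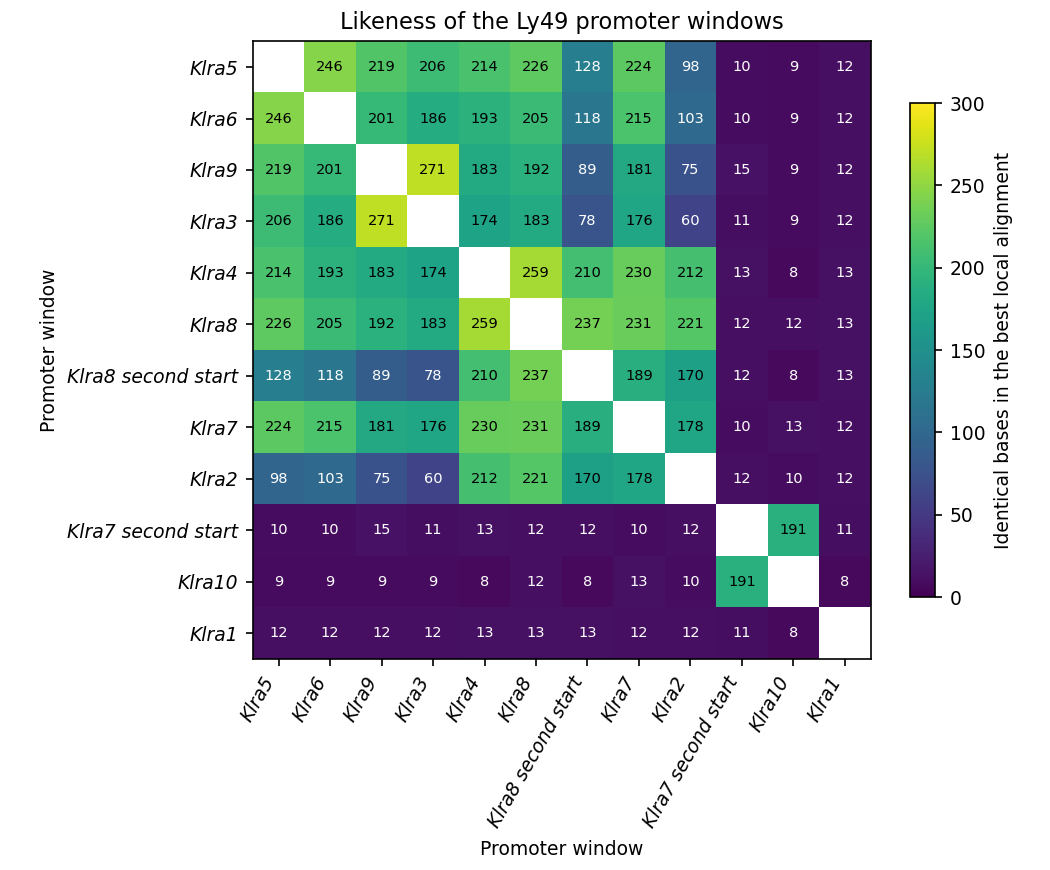
Identical bases in the best local alignment of each pair of promoter windows of 300 bases (colour and number), for the upstream start of the 10 members and the second starts of Klra7 and Klra8. Among the upstream windows of 8 members, 24 pairs share 150 or more bases, while Klra2 shares 60 to 103 with Klra3, Klra9, Klra5 and Klra6. The second start of Klra7 pairs with Klra10 at 191 bases, and Klra1 stands apart with at most 13.

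The shared runs marked in the sequences were chosen after the windows had been compared. GCAATTTCCTC occurred in 7 of the 10 upstream windows. Among all 32851 promoter windows of the mouse it occurred in 19 (0.0578%), the Ly49 windows included, counting both strands. The runs were picked for being shared by related windows, so the contrast is no test. AGGAGGGGC occurred in the same number of members and in 1.78% of all windows. Both runs were present at Klra4 and Klra8, which had a region over the window, and at Klra3 and Klra9, which had none.

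The windows were searched for 7 motifs on both strands, and 6 of these had a match in 1 or 2 of the 10 upstream windows, too few to set apart from the shares of all promoter windows. The Klra1 window alone held TGTGGT (RUNX), ACAGGAAG (ETS) and TCACACC (T-box), with 1 match each, and the matches did not overlap. These motifs occurred in 16.8%, 3.58% and 3.98% of all promoter windows. TTCNNNGAA, the motif of STAT factors that act below the IL-15 receptor, had a match in the upstream windows of Klra2 and Klra10 and 2 matches at the second start of Klra7, against 8.30% of all windows. CTTTGA (TCF/LEF) had a match in the upstream windows of Klra6 and Klra7 (16.0% of all windows) and TGANTCA (AP-1) in that of Klra2 (7.81%). TATAAA, the letters of the TATA box, had a match in 6 of the 10 upstream windows (13.6% of all windows). These were the windows of Klra3, Klra5, Klra6, Klra8, Klra9 and Klra10. Relative to the RefSeq start, the nearest match began at -84 (Klra3), and that of Klra8 was on the opposite strand. In pairs, the windows of Klra3, Klra5, Klra6 and Klra9 shared 186 to 271 identical bases. Their matches are thus not independent, and the difference from the share of all windows was not tested. The second start of Klra7 also held 1 match to CTTTGA and 2 to TATAAA. A match is a run of letters and not a bound site, and a motif with no match in a window says nothing of the factor.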

How the data were processed

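ATAC-seq was performed on 4 NK cell cultures, 2 per IL-15 dose, each after 72 h. Samples were grouped by the dose in their titles. The authors' deposited tables give region positions, region widths in bp and 2 lists of differentially accessible regions, and contain 0 columns of values per sample. The submitters' processing notes name BWA, ArchR, MACS2, HOMER 4.11.1 and the build mm10, without their roles. The differential test, its threshold, its reference dose and the pooling of replicates are not given in the sources used here. The planned count test of the doses could therefore not be run, and the tests became descriptions.

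Region starts were 0-based in the full list, so 1 was added, and coordinates are given 1-based. Genes and promoter windows came from RefSeq tables of GRCm38.p6, the assembly behind mm10. All 10 members matched by symbol and had a promoter window, 2 of them 2 windows. Exons and introns were not annotated. Gene rows outside the assembled chromosomes were left out. A region went to the protein-coding gene with the closest span, and a tie was settled by the closer gene end. Windows were aligned locally with Biopython 1.88 (match 2, mismatch -3, gap opening -7, extension -2). Intervals are 95% Wilson intervals, and the limit for a count of 0 is 3 counts. The assignment and the motif search were tested on simulated data. The members and lists were chosen with earlier results of these data known. Named are every member with its count, every listed region, the regions at a start and the widest region of a member. Alternatives changed the assignment of regions, the distance from a start, the extent of the cluster and the strand searched.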

Additional observations from a re-analysis of the deposited data

How the results depend on the processing

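No paired analysis was possible because only positions were given, with replicates numbered 1 and 2 at both doses. The dose comparison and its alternatives (another normalization, no filter, leaving out a replicate) were likewise not run. Of 39 alternatives to 15 results, 30 stayed close to the reported value and 9 moved. The number of Ly49 regions, 75, became 44 within the gene or 10 kb of it, 19 overlapping the gene and 36 with genes of every biotype. The 4 down regions became 0 when only regions overlapping a gene counted, by construction since all 4 lie outside genes, 1 with every biotype, and 3 within 10 kb. The 0 up regions became 1 when Klra17 was added. Density rose from 6.08 to 14.6 regions per 100 kb without Klra2, and 7 in place of 4 members had a region within 3000 bp of a start. The T-box match at Klra1 was lost (0 members) on the forward strand. The distance of 1000 bp (4 members) and the gene end as reference point were chosen after seeing the data. Depth is unknown and limits what a missing region can show.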

Other observations

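Klra17, which encodes Ly49Q, a receptor known mainly from plasmacytoid dendritic and myeloid cells, lies beside Klra5 and was not among the 10 members. It had 4 regions, none over the gene of 45.5 kb or over its promoter window. All 4 lay between 6349 and 12904 bp from the gene, on the side away from the other Ly49 genes. A region of 207 bp at chromosome 6, 129819217 to 129819423, was in the authors' up list, and the other 3 were unlisted. Klra17 and Klra2 were thus the Ly49 genes whose regions all lay more than 6 kb away.

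The Ly49 pseudogenes were not without accessible regions. Klra13-ps, 15.3 kb long, was overlapped by 6 regions that covered 8.85% of it, Klra14-ps (11.6 kb) by 2 covering 6.07%, and Klra11-ps (10.2 kb) by 1 of 749 bp, at 130092385 to 130093133, which was the widest region assigned to Klra8. None of these 9 regions was listed. The stretch of 812 kb between Klra1 and Klra2 was overlapped by 12 regions, or 1.48 per 100 kb, all unlisted. The region that covers the start of Klra1 is 1 of these 12.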
